A study of Mus musculus with 6 samples.

Results

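The 38 genes described here mark endothelial cells, the cells that line blood vessels, and were followed in whole kidneys of mouse embryos with and without Sall1. They were listed by name and matched to array probes through the RefSeq accession of each probe, with the brightest probe standing for a gene. Of the 38 genes, 37 were measured, against 26394 features kept on the arrays (15234 of them named genes), and Tal1 had no matched probe. All 37 were well above background on all 6 arrays, so no member was lost to the filter on dim probes, and the defining endothelial genes Pecam1, Cdh5, Kdr, Tek, Tie1 and Emcn were all present in this tissue.

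Blood vessels of the embryonic kidney arise from endothelial precursors in and around the mesenchyme and grow along signals from epithelial and stromal cells. Vascular endothelial growth factors act on the tyrosine kinase receptors Kdr, Flt1 and Flt4, angiopoietins act on Tek with its partner Tie1, and Notch signalling through Dll4 marks arterial vessels. Endothelial identity is held by ETS factors such as Erg and Fli1, by the related Sox7, Sox17 and Sox18, and by the blood and vessel factors Tal1 and Lyl1. In the kidney, endothelial cells form the glomerular capillaries in contact with podocytes, the epithelial cells that make Vegfa there.

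Transcripts were read on 6 one-colour Agilent arrays, each with 1 sample of kidney RNA, at E14.5 in mice on a mixed 129 and C57BL/6 background. In the Six2Cre line, whose Cre directs deletion of floxed Sall1 to nephron progenitors and not to endothelium, there were 2 control arrays (numbers 5 and 2) and 2 Sall1 knockout arrays (numbers 7 and 9). In the inducible line, called CreER here, there was 1 control array (number 2, titled wt/flox) and 1 Sall1 knockout array (number 5, titled CreER/flox), with tamoxifen given at E12.5 and kidneys collected 48 hours afterwards. CreER is named for that knockout alone, so its presence and the loss of Sall1 cannot be told apart. The Six2Cre arrays are titled WT and KO, which does not say whether those controls carried the Cre. A label common to all 6 samples speaks of tamoxifen, and whether Six2Cre mice were given it is not stated. Separate embryos are not named for the arrays, so p-values measure the spread between these samples, which may be technical. Six2Cre control 5 and Six2Cre knockout 7 shared slide 1 and the other 4 arrays shared slide 2, which gave 3 same-slide pairs of knockout and control: Six2Cre on slide 1, Six2Cre on slide 2, and CreER on slide 2.

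Between 80.0% and 82.9% of probes were well above background on 5 arrays, and 71.6% on CreER knockout 5, where the negative control spots also spread more widely (SD 4.01, against 1.46 to 1.61 elsewhere). The number of arrays limits the precision. The targeted gene, Sall1, was lower in the knockout by 1.27 and 1.23 log2 units in the Six2Cre pairs of slides 1 and 2 and by 2.78 in the CreER pair. Six2Cre control 2 stood apart in a list of 8 muscle genes, whose summed signal there was 28.87 times the array's 75th percentile against 2.20 to 4.18 on the other 5 arrays. The slide 2 Six2Cre pair and all fits use that array. Without it the members' median Six2Cre difference was 0.03 log2 units, against -0.08 with all arrays. The CreER pair was also unequal in muscle genes. There 7 of 8 were higher in the knockout, with a median difference of 1.2, where 48.9% of all features were higher.

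Promoter windows are shown because ETS factors are among the members and because Flt1, Clec14a, Emcn, Cd34 and Gja5 carry the contrasts described below. RefSeq windows of build GRCm38.p6, the 250 bases before a gene's start, were matched for 20 of the 38 genes. The letters AGGAAG, a core often bound by ETS factors, were found on either strand in 11 of the 20 windows (55.0%), against 29.2% of 27025 windows of the same length. A second ETS core, CCGGAA, was found in 10% of the members' windows and 12.2% of all. Either core was found in 65.0% and 38.0%. Neither the GATA letters AGATAA (5.0% and 10.3%), the SOX letters AACAAT (10% and 9.6%) nor the E-box CANNTG (60.0% and 66.0%) was more frequent by a like margin. The E-box can overlap the other words. A match describes letters and not a bound site, and no binding was measured here.

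The 5 windows below are printed 5′ to 3′ on the gene's own strand, with AGGAAG or its reverse complement CTTCCT in capitals. They lie at chr5:147726012-147726261 (minus strand) for Flt1, chr12:58269259-58269508 (minus strand) for Clec14a, chr3:137340828-137341077 (plus strand) for Emcn, chr1:194938571-194938820 (plus strand) for Cd34 and chr3:97032152-97032401 (plus strand) for Gja5. Flt1 and Emcn hold 2 matches each, Cd34 and Gja5 hold 1 each, and the window of Clec14a holds 0, which says only that these letters are not in this window.
Flt1: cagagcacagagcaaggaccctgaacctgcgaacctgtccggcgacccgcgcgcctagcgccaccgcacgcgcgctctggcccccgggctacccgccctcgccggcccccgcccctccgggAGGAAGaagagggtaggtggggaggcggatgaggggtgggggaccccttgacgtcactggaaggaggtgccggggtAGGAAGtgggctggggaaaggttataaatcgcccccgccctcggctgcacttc
Clec14a: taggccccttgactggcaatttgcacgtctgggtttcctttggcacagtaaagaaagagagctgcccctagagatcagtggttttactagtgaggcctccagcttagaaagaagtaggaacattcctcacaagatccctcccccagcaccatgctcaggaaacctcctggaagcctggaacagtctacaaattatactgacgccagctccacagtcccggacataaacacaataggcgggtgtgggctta
Emcn: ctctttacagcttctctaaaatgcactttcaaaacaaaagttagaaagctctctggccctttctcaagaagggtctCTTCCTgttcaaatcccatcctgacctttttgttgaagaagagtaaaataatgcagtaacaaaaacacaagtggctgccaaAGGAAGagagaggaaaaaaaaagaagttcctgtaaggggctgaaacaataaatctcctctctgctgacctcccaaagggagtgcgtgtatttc
Cd34: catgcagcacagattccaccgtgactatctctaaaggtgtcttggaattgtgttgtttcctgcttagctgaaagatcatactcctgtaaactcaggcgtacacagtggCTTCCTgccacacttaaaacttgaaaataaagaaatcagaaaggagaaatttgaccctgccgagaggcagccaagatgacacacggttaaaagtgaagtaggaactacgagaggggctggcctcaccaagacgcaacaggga
Gja5: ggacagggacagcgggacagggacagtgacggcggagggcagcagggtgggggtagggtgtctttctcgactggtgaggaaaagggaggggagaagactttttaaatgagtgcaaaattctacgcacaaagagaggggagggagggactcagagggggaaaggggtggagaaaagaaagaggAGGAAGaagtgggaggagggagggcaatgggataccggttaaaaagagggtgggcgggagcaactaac
In the comparisons that follow, Clec14a, Emcn and Cd34 were higher in the knockout of all 3 pairs, Gja5 was lower, and Flt1 differed in sign between slides.

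Endothelial transcripts as a group differed little between Sall1 knockout and control kidneys. The median difference over the 37 members was -0.08 log2 units in the Six2Cre pair of slide 1, -0.04 in that of slide 2 and 0.17 in the CreER pair, beside 0.02, 0.07 and -0.01 over all features. In the Six2Cre line 17 of 37 members were higher in the knockout on each slide, while 52.2% of all features were higher on slide 1 and 58.2% on slide 2. In the CreER pair 31 of 37 were higher, against 48.9% of all features and 55.8% of the named genes that were well above background on all 6 arrays. The members' summed signal, in multiples of the array's 75th percentile, ran from 97.03 to 125.79 in the 3 controls and from 105.79 to 144.78 in the 3 knockouts, and the ranges overlapped. Within pairs the knockout sum was 1.09, 0.98 and 1.15 times the control sum. In whole kidneys, fewer endothelial cells and less of a transcript per cell cannot be told apart.

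No member passed the test in any comparison. With limma and Benjamini-Hochberg adjustment over all 26394 features, 0 of 37 members had an adjusted p under 0.05 for Six2Cre knockout against control (n = 2 arrays per group), for genotype over the 3 pairs with pair as a block, and for the difference between lines. The same held for all features, of which 0% were called in each. At an unadjusted p under 0.05 the fits gave 1671, 2562 and 614 features in that order, and 0, 3 and 0 members. The lowest adjusted p of a member was 0.899, 0.496 and 1.0 in that order. A Six2Cre fit with slide as a block and limma's trended, robust variance called 630 features (2.39%), and 0 of 37 members. With slide as a block alone, 0 features were called. The 630 calls thus appeared only when trended, robust variance was added. The 95% confidence interval over the 3 pairs lay within 2-fold in either direction for 35 of the 37 members. Flt1 and Ptprb were the exceptions. The median half-width was 0.40 log2 units, for the members and for all features. The interval lay within 2-fold for 20483 of 26394 features, and for 12014 of the 13767 named genes well above background on all 6 arrays. The Six2Cre fit, with 2 arrays per group and no slide term, gave wider intervals (median half-width 0.78 for the members). They lay within 2-fold for 15 of 37 members and 10621 of 26394 features. Differences between slides enter the spread of that fit.

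Arrays of the same genotype on different slides differed by more, in median, than the knockouts from their controls. Six2Cre controls 5 and 2, on different slides, differed by a median of 0.31 log2 units (absolute value) over the members, and knockouts 7 and 9 by 0.33. On the same slide, the CreER control and Six2Cre control 2 differed by a median of 0.10. The members' median absolute knockout difference was 0.24 and 0.18 in the Six2Cre pairs and 0.19 in the CreER pair, beside 0.27, 0.24 and 0.14 over all features. Differences of at least 2-fold were found for 2 members on slide 1 (Flt1 and Ptprb, against 11.2% of features), for 1 on slide 2 (Flt1, against 8.36%), and for 0 in the CreER pair (against 3.59% of the features well above background on at least 1 of its 2 arrays).

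**Figure D1:**
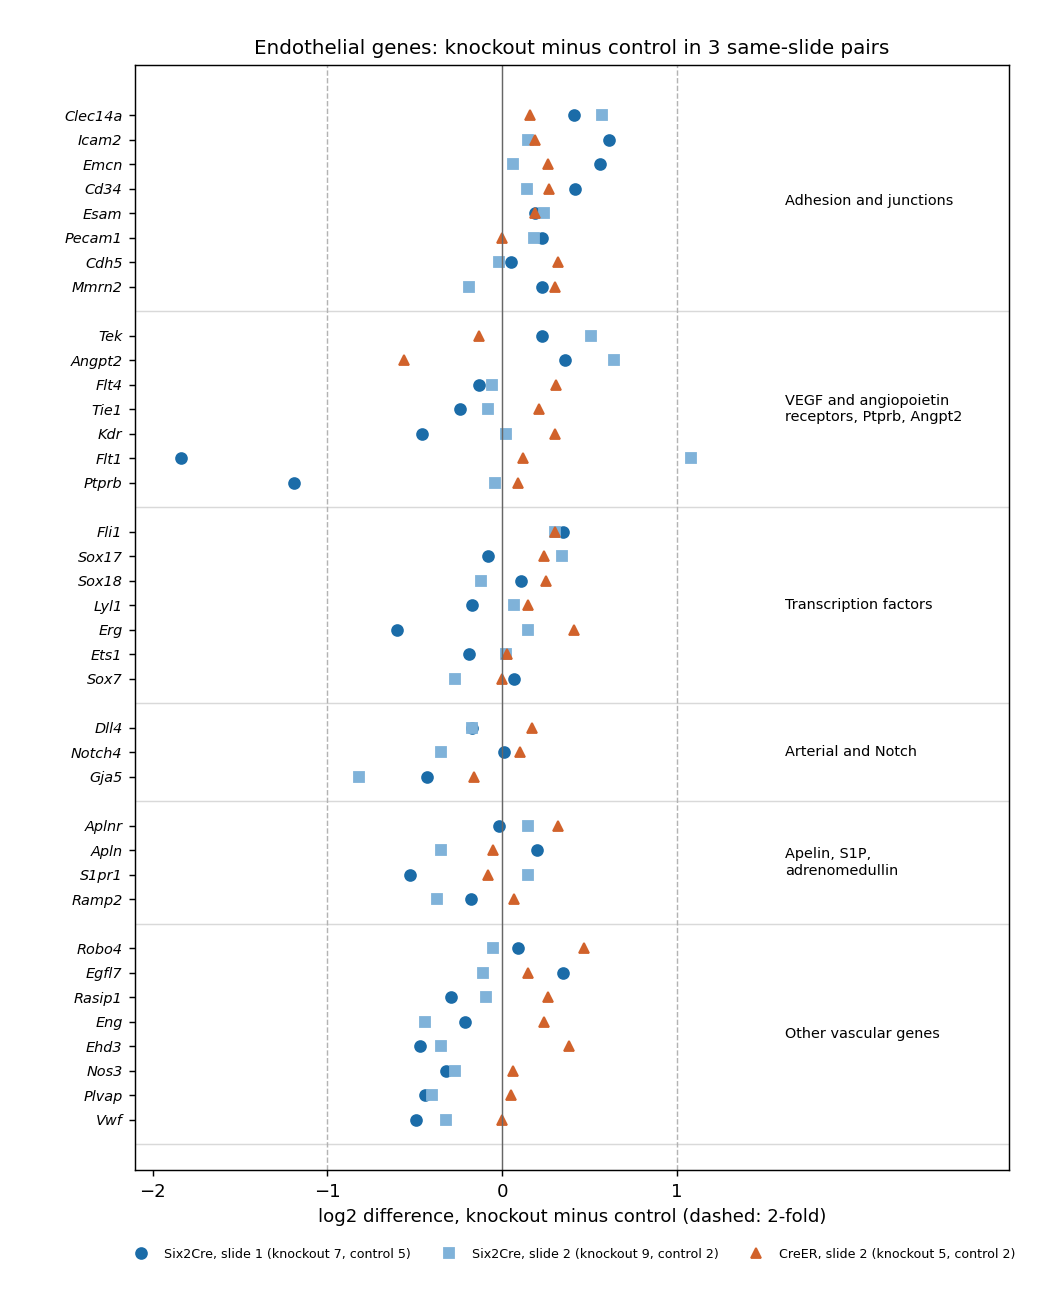
Log2 difference, knockout minus control, for each of the 37 measured endothelial genes (rows, grouped by role) in the 3 same-slide pairs; each point is 1 pair, the dashed lines mark 2-fold, and single pairs have no error bar. Most points lie within 2-fold, Flt1 lies beyond it on opposite sides in the Six2Cre pairs of slides 1 and 2, and 31 of 37 CreER points lie above 0.

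Sign was shared by all 3 pairs for 9 members. Pecam1, Esam, Icam2, Emcn, Clec14a, Cd34 and Fli1 were higher in the knockout of every pair, 7 of 37, where 20.1% of all features were. Gja5 and Vwf were lower in every pair, 2 of 37, where 14.3% of all features were. These counts use the brightest probe. With probes averaged, 8 members were higher in every pair and 3 lower, beside 4981 and 4031 of 26394 features. For Pecam1 and Vwf the CreER difference rounds to 0.00 at 2 decimals, and that of Vwf turned positive under quantile scaling (0.01) and normexp background correction (0.08). All 3 knockout arrays lay above all 3 controls for 4 members, Icam2, Emcn, Clec14a and Fli1 (6.81% of all features), and below them for Gja5 (4.43%). Without the slide 1 pair, 14 members were higher in both remaining pairs and 3 lower. Without the slide 2 Six2Cre pair, which holds control 2, the counts were again 14 and 3, and without the CreER pair they were 9 and 12. The shares of all features, in the same order, were 29.5%, 29.4% and 34.7% higher and 22.5%, 28.3% and 24.4% lower.

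The 8 genes of adhesion and junctions had the highest medians among the roles in both Six2Cre pairs. All 8 were higher in the knockout on slide 1, 6 of 8 on slide 2 and all 8 in the CreER pair, with medians of 0.32, 0.14 and 0.23, and 0 of 8 passed the test. The counts moved with the processing. On slide 1, 7 of 8 were higher with quantile scaling, and in the CreER pair 7 of 8 with probes averaged. On slide 2, 7 of 8 were higher with quantile scaling, normexp or averaged probes. Values on single arrays are given below as log2 signal minus the array's 75th percentile, for control and then knockout in the Six2Cre pair of slide 1, the Six2Cre pair of slide 2 and the CreER pair. Clec14a, a C-type lectin of the vessel wall, read -1.70 and -1.30, -2.02 and -1.45, and -1.74 and -1.58. Its knockout values were all above its control values, with a difference over the 3 pairs of 0.38 (SE 0.14, adjusted p = 0.507, limma). A second, dimmer Clec14a probe was lower in the CreER knockout (-0.29), and with both probes averaged the CreER difference was -0.06.

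Icam2, a ligand for leukocyte integrins, read 2.64 and 3.25, 3.05 and 3.20, and 3.13 and 3.33. Emcn, the sialomucin endomucin of capillary and venous endothelium, read 3.39 and 3.95, 3.68 and 3.74, and 3.69 and 3.95. Neither gene's groups overlapped, though the slide 2 Six2Cre differences were small, 0.15 for Icam2 and 0.06 for Emcn. Over the 3 pairs Icam2 differed by 0.32 (SE 0.15) and Emcn by 0.29 (SE 0.15), with adjusted p = 0.582 and 0.605 (limma). Cd34, a sialomucin of vessels and blood progenitors, read 3.29 and 3.70, 3.99 and 4.13, and 4.04 and 4.31. Esam, an immunoglobulin-family protein of tight junctions, read -0.01 and 0.18, 0.17 and 0.41, and 0.34 and 0.53. Both were higher in each knockout than in its own control, while the groups overlapped across pairs because the slide 1 arrays read lower. Their differences over the 3 pairs were 0.28 (SE 0.12, adjusted p = 0.566) for Cd34 and 0.21 (SE 0.11, adjusted p = 0.61) for Esam by limma.

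Pecam1, the homophilic adhesion protein CD31, read -0.79 and -0.56, -0.51 and -0.33, and -0.39 and -0.39. It was thus higher in both Six2Cre knockouts and level in the CreER pair. Mmrn2, a matrix protein that binds Clec14a, read 2.14 and 2.37, 3.17 and 2.99, and 2.82 and 3.12, and its Six2Cre differences had opposite signs. Its 2 Six2Cre controls lay 1.03 apart, more than any of its knockout differences. Cdh5, the VE-cadherin of endothelial junctions, differed by 0.05, -0.02 and 0.32 in the same order of pairs. With its probes averaged it was higher in every pair (0.03, 0.11 and 0.22).

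**Figure D2:**
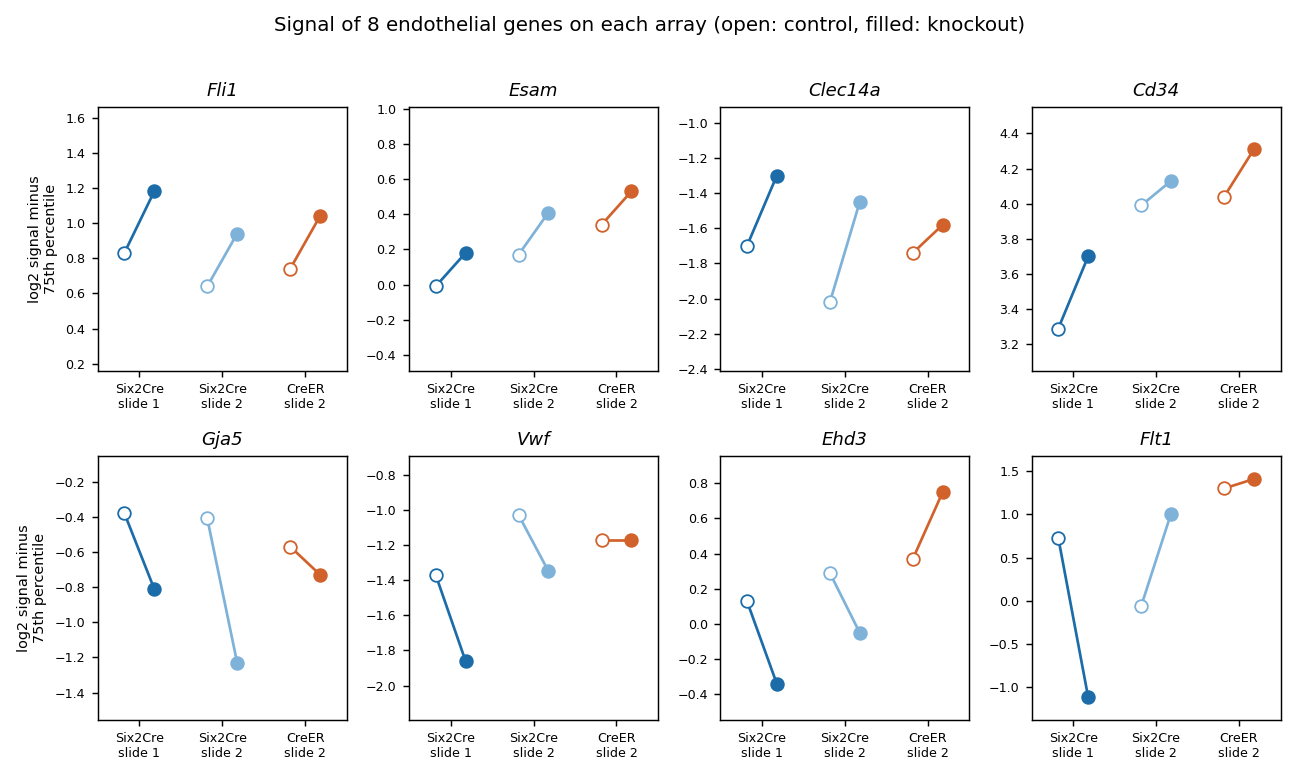
Log2 signal minus the array's 75th percentile for 8 endothelial genes on each of the 6 arrays, with open circles for controls, filled circles for knockouts and a line joining each same-slide pair; each point is 1 array, and vertical axes differ between panels. Fli1 and Clec14a lie higher in all 3 knockouts, Gja5 lies lower, and Flt1 turns its sign between the 2 Six2Cre pairs.

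Receptors for VEGF and angiopoietins, with their partners, showed no common direction: 2 of 7 were higher on slide 1, 4 of 7 on slide 2 and 5 of 7 in the CreER pair, and 0 of 7 passed the test. Flt1, the VEGF receptor that also exists as a soluble decoy, read 0.73 and -1.11, -0.06 and 1.01, and 1.30 and 1.41. It was 3.58-fold lower in the knockout on slide 1 and 2.11-fold higher on slide 2, and a second probe gave the same signs (-1.75 and 1.1 log2 units). Its Six2Cre difference had a confidence interval from -2.42 to 1.66, the widest span among the members named here. Kdr, the main signalling receptor for Vegfa, read 2.01 and 1.54, 2.23 and 2.25, and 2.30 and 2.60. Only the slide 1 knockout was below its control. These 2 genes, with Angpt2, Ehd3 and Plvap below, were chosen for display after their values were seen.

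Ptprb, the phosphatase VE-PTP that restrains Tek, read 0.98 and -0.21, 1.13 and 1.09, and 1.06 and 1.15. On 5 arrays the readings lie between 0.98 and 1.15 and Six2Cre knockout 7 lies apart; its difference on slide 1 was 2.28-fold. Tek, the angiopoietin receptor Tie2, read 0.15 and 0.38, 0.06 and 0.58, and 0.14 and 0.00. Tek was higher in both Six2Cre knockouts and lower in the CreER knockout. Angpt2, the angiopoietin of remodelling vessels, followed the same signs with readings of 0.30 and 0.66, 0.10 and 0.74, and 0.53 and -0.03. For Angpt2 the CreER difference was lower than the Six2Cre difference by 1.06 log2 units (SE 0.43, unadjusted p = 0.0591, adjusted p = 1.0, limma), and 0 members passed this test of the lines. Tek and Angpt2 were the 2 members, of 37, higher in both Six2Cre pairs and lower in the CreER pair. That pattern held for 3864 of 26394 features. Flt4, the receptor for Vegfc and Vegfd, differed by -0.13, -0.06 and 0.31, and Tie1, the orphan partner of Tek, by -0.24, -0.08 and 0.21.

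Transcription factors differed by less than 2-fold in every pair. Among the 7 measured, 3 were higher on slide 1, 5 on slide 2 and 7 in the CreER pair (5 of 7 with normexp background correction), with medians of -0.08, 0.07 and 0.24. Fli1, an ETS factor of endothelium and megakaryocytes, read 0.83 and 1.18, 0.64 and 0.94, and 0.74 and 1.04. The 3 knockouts were all above the 3 controls by nearly equal steps of 0.35, 0.30 and 0.30, with a difference over pairs of 0.32 (SE 0.11, unadjusted p = 0.0423, adjusted p = 0.496, limma). Its second probe differed by 0.14, 0.08 and 0.13. Erg, the ETS factor closest to endothelial identity, differed by -0.60, 0.15 and 0.41 and so did not follow Fli1. Ets1, another ETS factor with a wider range of tissues, differed by -0.19, 0.02 and 0.03, and its controls on the 2 slides lay 1.29 apart.

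The SOXF factors specify arterial and lymphatic endothelium. Sox7 read -0.02 and 0.05, -0.34 and -0.60, and -0.31 and -0.30, with the largest difference, -0.27, in the slide 2 Six2Cre pair. Sox17 differed by -0.08, 0.34 and 0.24, and Sox18 by 0.11, -0.12 and 0.25. None of the 3 kept its sign through all pairs. Lyl1, a helix-loop-helix factor of blood and vessel precursors, differed by -0.17, 0.07 and 0.15.

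Of the 3 arterial and Notch genes, Gja5 was lower in every knockout. Gja5, the gap junction protein connexin 40 of arterial endothelium and of renin cells, read -0.38 and -0.81, -0.41 and -1.23, and -0.57 and -0.73. Every knockout reading was below every control reading, with a difference over pairs of -0.47 (SE 0.17, unadjusted p = 0.0498, adjusted p = 0.514, limma). Its second probe was also lower in all 3 pairs (-0.39, -0.40 and -0.20). Dll4, the Notch ligand of arterial and tip cells, read -2.85 and -3.02, -2.38 and -2.55, and -2.29 and -2.12, which is lower by 0.17 in both Six2Cre pairs and higher by 0.17 in the CreER pair. Notch4, an endothelial Notch receptor, differed by 0.01, -0.35 and 0.10. None of the 3 passed the test.

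Genes of apelin, sphingosine phosphate and adrenomedullin signalling had mixed signs, with medians of -0.10, -0.10 and 0.01 over 4 genes. Their median absolute differences were 0.19, 0.25 and 0.07, against 0.24, 0.18 and 0.19 over all members. Aplnr, the apelin receptor of venous endothelium, read 1.41 and 1.39, 1.52 and 1.66, and 1.58 and 1.90. Ramp2, the protein that turns the calcitonin receptor-like receptor into an adrenomedullin receptor, read 3.63 and 3.45, 4.01 and 3.64, and 3.94 and 4.0. Aplnr thus had its largest difference in the CreER pair (0.32) and Ramp2 in the slide 2 Six2Cre pair (-0.37). The apelin ligand gene Apln differed by 0.20, -0.35 and -0.05, and S1pr1, the receptor that stabilises new vessels, by -0.53, 0.15 and -0.08. None of the 4 passed the test, and on the brightest probe none had the same sign in all 3 pairs. With probes averaged, Aplnr was higher in every pair (0.19, 0.13 and 0.28) and Apln lower (-0.05, -0.26 and -0.35).

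The remaining 8 vascular genes were mostly lower in the Six2Cre knockouts and higher in the CreER knockout. On slide 1, 2 of 8 were higher, on slide 2, 0 of 8, and in the CreER pair 7 of 8, with medians of -0.31, -0.30 and 0.20. Ehd3, an endocytic protein of glomerular endothelium, read 0.13 and -0.34, 0.29 and -0.05, and 0.37 and 0.75. Plvap, which forms the diaphragms of fenestrated endothelium, read 1.64 and 1.20, 1.68 and 1.29, and 1.80 and 1.84. Both Six2Cre knockouts lay below both Six2Cre controls for the 2 genes, by 0.41 (SE 0.26) for Ehd3 and 0.42 (SE 0.24) for Plvap in the Six2Cre fit, each at adjusted p = 1.0 (limma). Gja5 was the other member of the 3 of 37 with such a separation, which 12.6% of all features showed. Without Six2Cre control 2 the fitted differences were -0.32 for Ehd3 and -0.40 for Plvap.

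Vwf, the clotting factor stored in endothelium and platelets, read -1.37 and -1.86, -1.03 and -1.35, and -1.17 and -1.17. Robo4, a receptor of stable vessels, read 2.29 and 2.38, 2.74 and 2.7, and 2.73 and 3.21, and only its CreER difference (0.47) was over 0.1. Nos3, the endothelial nitric oxide synthase, differed by -0.32, -0.27 and 0.06, Eng, the TGF-beta co-receptor endoglin, by -0.21, -0.44 and 0.24, and Rasip1, a regulator of vessel lumen formation, by -0.29, -0.09 and 0.26. Egfl7, a secreted protein of growing vessels, differed by 0.35, -0.11 and 0.15. Of the 8 genes, 6 were therefore lower in both Six2Cre pairs: Vwf, Plvap, Ehd3, Nos3, Eng and Rasip1.

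Lower in both Six2Cre pairs and higher in the CreER pair was the pattern of 10 members: Flt4, Tie1, Ptprb, Dll4, Ramp2, Eng, Rasip1, Plvap, Ehd3 and Nos3. It held for 10% of all features. In the Six2Cre line 9 members were higher in both pairs (34.7% of features) and 12 lower in both (24.4%). The CreER difference minus the Six2Cre difference had a median of 0.27 over the members and -0.03 over all features, with a median SE of 0.51 for a single member. No member passed the test of that difference, whose lowest adjusted p was 1.0. The CreER side of it rests on 1 array with fewer probes above background, and the part of that array in the result was not tested. Under quantile scaling, normexp or averaged probes, 32, 31 and 30 members were higher in the CreER pair with medians of 0.17, 0.21 and 0.17, while the share of all features that were higher moved to 48.3%, 66.9% and 46.5%.

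Outside the members, 36 further genes of endothelium had medians of 0.09, 0.03 and 0.14, with 14 higher and 2 lower in all 3 pairs (20.1% and 14.3% of all features), and 0 passed in the Six2Cre or 3-pair fits (2 did with slide block and trended, robust variance). Klf4, a factor induced by blood flow and present in other cells too, had the highest mean difference (0.77, 1.37 and 0.75), and the Notch target Nrarp the lowest (-0.86, -0.76 and -0.31). The 11 mural cell genes, of the pericytes and smooth muscle around vessels, had medians of 0.08, -0.16 and 0.08, from Rgs5 (-1.05, -0.07 and -0.10) to Myh11 (0.47, 0.34 and -0.38). Their summed signal was 31.40 to 42.77 in controls and 31.32 to 41.76 in knockouts, so the ranges overlapped as they did for the members.

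Ligands and co-receptors that act on the members held 19 measured genes, of which 0 passed in the Six2Cre or 3-pair fits. Vegfc, the ligand of Flt4, read 1.67 and 2.80, 1.55 and 2.76, and 1.60 and 2.85, a difference of 2.19-fold, 2.31-fold and 2.37-fold. Vegfd, which also binds Flt4, read 1.13 and 2.41, 0.97 and 2.05, and 1.44 and 2.04. Every knockout lay above every control for both ligands, while their receptor gene Flt4 differed by no more than 0.31 log2 units in any pair. Over the 3 pairs the limma difference was 1.19 (SE 0.11, adjusted p = 0.226) for Vegfc and 0.99 (SE 0.18, adjusted p = 0.336) for Vegfd. In the Six2Cre fit with slide block and trended, robust variance they were called, at adjusted p = 0.0104 and 0.0113 (limma), as were the Notch genes Jag1 and Hey1 below. With slide as a block alone neither ligand was called (adjusted p = 0.172 and 0.18, limma).

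Vegfa, the ligand of Kdr and Flt1, read 2.22 and 2.19, 1.83 and 1.81, and 2.22 and 1.98 on its brightest probe. Its slide 1 difference was -0.03 on that probe, -0.11 with quantile scaling and -0.30 with its 4 probes averaged. Vegfb differed by -0.07, 0.00 and 0.09, and Pgf, the placental growth factor that binds Flt1, by -0.09, -0.48 and -0.20. Nrp1, a co-receptor of Kdr, was lower in each pair (-0.45, -0.31 and -0.38), and Nrp2, the co-receptor of Flt4, differed by -0.38, -0.16 and 0.44. Angpt1, the ligand that activates Tek, differed by -0.18, 0.20 and -0.23.

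The Notch ligand gene Jag1 differed by -0.75, -0.75 and -0.10 and the Notch target Hey1 by -0.94, -0.81 and 0.23. Both were called in the Six2Cre fit with slide block and trended, robust variance (adjusted p = 0.042 and 0.0287, limma). Neither was called in the plain Six2Cre or 3-pair fit, or with slide as a block alone (adjusted p = 0.289 and 0.249, limma). Both genes are also expressed in the forming nephron. Hey2, an arterial relative of Hey1, differed by -0.27, 0.33 and -0.55. Efnb2 and Ephb4, which mark arteries and veins, differed by -0.96, 0.11 and -0.11 and by 0.13, -0.06 and -0.01. The chemokine Cxcl12 differed by 0.45, 0.34 and -0.46 and its receptor Cxcr4 by -0.17, -0.58 and -0.05. Pdgfb, which recruits pericytes, differed by -0.21, -0.31 and -0.09, and Tgfb1 by -0.15, -0.30 and 0.14. Slit2 differed by 0.27, 0.32 and -0.05 and Robo1 by -0.17, -0.06 and 0.18.

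**Figure D3:**
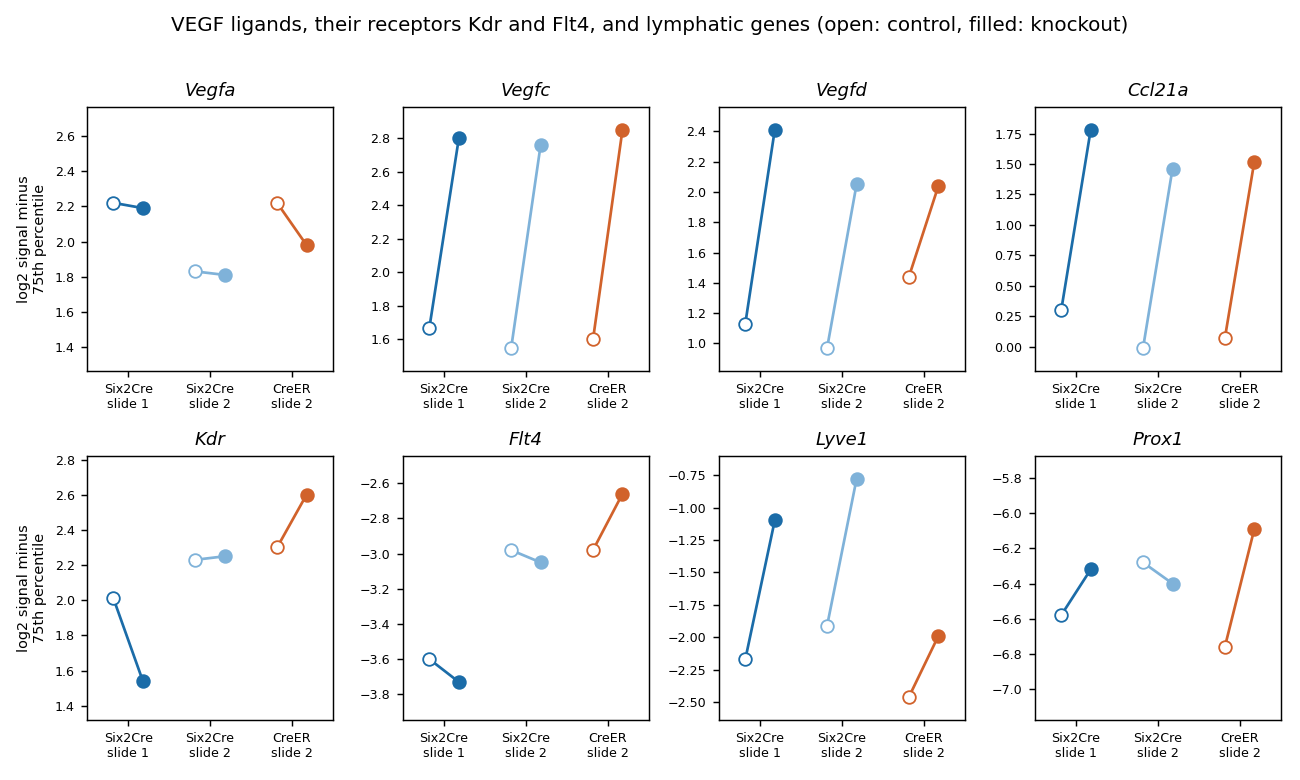
Log2 signal minus the array's 75th percentile for 3 VEGF ligands, their receptors Kdr and Flt4, and 3 lymphatic genes on each of the 6 arrays, with open circles for controls, filled circles for knockouts and a line joining each same-slide pair; each point is 1 array, and vertical axes differ between panels. Vegfc, Vegfd, Ccl21a and Lyve1 lie higher in the knockout of every pair, whereas Vegfa, Kdr, Flt4 and Prox1 do not.

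Markers of lymphatic endothelium, 4 genes, had a summed signal of 1.41 to 1.58 in controls and 3.30 to 4.08 in knockouts. Between 69.8% and 87.1% of that sum was Ccl21a, and without it the sums overlapped, at 0.35 to 0.43 and 0.42 to 0.80. Ccl21a, a chemokine of lymphatic vessels, read 0.30 and 1.78, -0.01 and 1.46, and 0.07 and 1.52, with a 3-pair difference of 1.47 (SE 0.11, adjusted p = 0.213, limma). Its value is uncertain as that of a single gene, since near-identical Ccl21 copies can share a probe. Lyve1, a hyaluronan receptor of lymphatic vessels and of macrophages, differed by 1.08, 1.13 and 0.47. Prox1, the factor that defines lymphatic identity, differed by 0.26, -0.12 and 0.67, and Pdpn, also made by podocytes, by 0.44, 0.47 and -0.13. Prox1 was dim. On CreER knockout 5 it read -6.09, where the dimmest probe well above background read -6.42. Its differences were -0.03, -0.01 and 0.33 with normexp, and 0.35, 0.26 and 0.48 with probes averaged. Ccl21a and Lyve1 were called in the Six2Cre fit with slide block and trended, robust variance (adjusted p = 0.00545 and 0.0357, limma), and Prox1 and Pdpn were not. With slide as a block alone neither Ccl21a nor Lyve1 was called (adjusted p = 0.13 and 0.183, limma).

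Macrophage and megakaryocyte markers were higher in the knockouts of all 3 pairs, and some members (Pecam1, Icam2, Cd34, Esam, Fli1 and Vwf among them) are also expressed by blood cells. All 7 macrophage genes were higher in the knockout of all 3 pairs, from Csf1r (0.31, 0.26 and 0.26) to Ptprc (0.86, 0.89 and 0.54), with a summed signal of 2.44 to 2.94 in controls and 3.60 to 4.40 in knockouts. All 6 megakaryocyte and platelet genes were higher too, from Itga2b (0.33, 0.34 and 0.50) to Ppbp (1.24, 1.23 and 0.32), with sums of 1.70 to 2.46 and 2.95 to 4.13 (0.51 to 0.75 and 0.79 to 1.20 without Pf4, the brightest). None of these marker genes was at background. No macrophage gene passed in the Six2Cre fits with or without the slide block or in the 3-pair fit, and 2 of the 6 megakaryocyte genes passed in the Six2Cre fit with slide block and trended, robust variance. Their part in the members' differences was not tested. The 6 erythroid genes had medians of 0.09, -0.19 and 0.52, with 4, 3 and 5 of 6 higher in the knockout and Epor lowest (-0.37, -0.57 and -0.06). Their sum was 83.22 to 133.58 in controls and 144.16 to 148.83 in knockouts, and 1 gene made up at least 95.7% of it on every array; without that gene the sums overlapped (3.33 to 5.30 and 4.04 to 5.61).

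Lists for other kidney cells are given for comparison with the endothelial medians. The 7 nephron progenitor genes had medians of -1.11, -0.56 and -0.50, from Cited1 (-4.05, -4.28 and -2.85) to Pax2 (-0.50, -0.56 and 0.37), with sums of 24.63 to 30.82 in controls and 10.18 to 16.16 in knockouts. Podocyte genes, from cells that face the glomerular endothelium, had medians of -1.38, -1.07 and -0.03 over 5 genes. Synpo had the highest mean difference (0.00, -0.18 and 0.12). The podocyte genes summed to 2.64 to 4.45 in controls and 1.98 to 2.99 in knockouts. The glomerular endothelial gene Ehd3 was lower in the 2 Six2Cre pairs, where the podocyte medians were -1.38 and -1.07. It was higher in the CreER pair, where the podocyte median was -0.03. These signs were those of 10 members, Ehd3 among them, and of 10% of all features. The part of podocytes in the Ehd3 differences was not tested. Stroma genes, 5 in number, had medians of 0.51, 0.68 and -0.14, with Foxd1 highest (1.21, 1.33 and 0.24) and sums of 28.38 to 39.10 in controls and 28.45 to 65.34 in knockouts. The 5 ureteric bud genes had medians of 0.00, -0.14 and 0.01, from Ret (-0.04, -0.41 and -0.48) to Calb1 (0.81, 0.44 and 0.25), with sums of 24.87 to 25.76 and 27.87 to 39.71 (6.60 to 8.77 and 6.16 to 8.03 without Calb1, the brightest). Ret was dim. On CreER knockout 5 it read -7.35, below the dimmest probe well above background there (-6.42). With normexp the differences of Ret were -0.06, -0.13 and 0.16. The 8 muscle genes had medians of -0.25, -4.18 and 1.2, from Ttn (-2.19, -5.53 and 2.18) to Actc1 (0.28, -2.17 and 0.62). The size of the Ttn differences depended on the processing. They were -0.82, -4.19 and 1.25 with normexp, and -0.96, -4.47 and 1.48 with probes averaged.

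**Figure D4:**
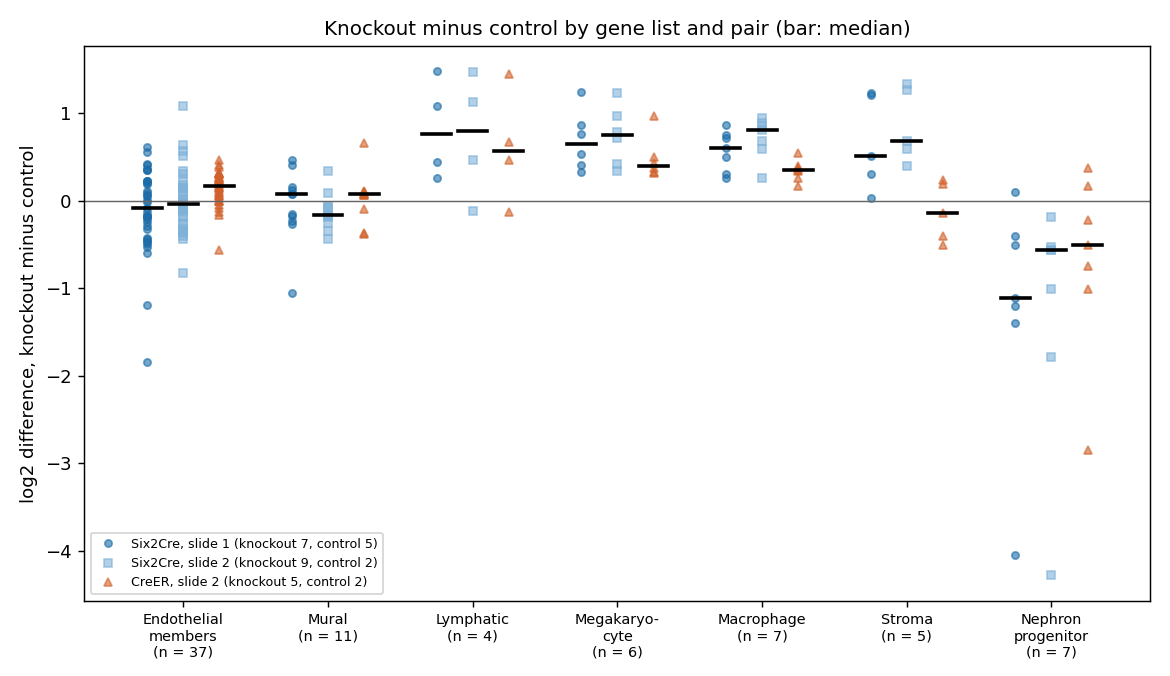
Log2 difference, knockout minus control, of each gene in 7 lists (endothelial members, mural, lymphatic, megakaryocyte, macrophage, stroma and nephron progenitor), by same-slide pair; each point is 1 gene in 1 pair, bars mark medians, and n is the number of measured genes. The endothelial medians of -0.08, -0.04 and 0.17 lie near 0, and all macrophage and megakaryocyte points lie above 0.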

How the data were processed

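Per the labels, 0.25 ug of RNA per kidney sample was labelled with Cy3, and per the file headers scans were read with Agilent Feature Extraction. The authors deposited a processed signal for each spot, a linear intensity from which background had been subtracted but without scaling between arrays; their series table repeats it. The array headers name build mm9, and probe positions were not used. Without control spots 41174 probes remained, and 40987 after outlier flags were removed; RefSeq accessions named 24999 of them for 17235 genes. The analysed value was log2 of that signal minus the array's 75th percentile. Features well above background on at least 2 of 6 arrays were kept. Tests used limma 3.58.1 in R 4.3.3 (lmFit and eBayes, two-sided, Benjamini-Hochberg at 0.05), and figures used matplotlib 3.10.9. The Six2Cre and 3-pair fits were also run on simulated data. Those data held no slide or line effects, so they cannot show how slide differences affect the fits. The 3-pair fit had pair as a block, and the test between lines borrowed its spread for the single CreER arrays from the Six2Cre groups. The main Six2Cre fit and the test between lines had no slide term. Alternatives were quantile scaling, normexp background correction (offset 50, on the median pixel intensity per the file headers, since mean signals were not in the columns used), other filters, slide as a block, trended and robust variance, averaged probes, and each array or pair left out. The members and lists were chosen with earlier results of these data known. Values on every array are given for members of 1 sign in all 3 pairs and for the highest and lowest member of each role; of other lists, the highest and lowest gene by mean pair difference and all ligands and co-receptors are named, except a few that are not reported here.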

Additional observations from a re-analysis of the deposited data

How the results depend on the processing

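The members' count of calls was 0 under every alternative run for the Six2Cre comparison, the 3-pair comparison and the difference between lines. Calls over all features were 0 in each main fit and 0 for the Six2Cre comparison with slide as a block alone. They were 630 for the Six2Cre comparison with slide as a block and trended, robust variance. Over the 3 pairs they were 39 with normexp and 12 with trended, robust variance. With each Six2Cre array left out in turn, the members' median Six2Cre difference (-0.08 with all) ran from -0.17 (without control 5) to 0.13 (without knockout 7), and that of the difference between lines (0.27) from 0.11 (without knockout 7) to 0.37. The Six2Cre difference of single members crossed 0 in the same way: from -0.07 to 0.63 for Cd34, -0.44 to 0.24 for Flt4, -0.38 to 0.06 for Tie1, -1.27 to 0.03 for Ptprb, -0.41 to 0.06 for Dll4, -0.79 to 0.13 for Eng and -0.62 to 0.03 for Nos3. Leaving out 1 array leaves an arm with 1 sample, assumed to vary like the others, and unbalances the slides. Quantile scaling, normexp, averaged probes and the filters reversed no fitted member difference given here. All 37 measured members were well above background on all 6 arrays.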
